A study of Arabidopsis with 6 samples.

Results

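DEAD-box RNA helicases are enzymes that use ATP to unwind short RNA duplexes or to strip proteins from RNA, and in plants most carry RH names. Different members work in the nucleolus on ribosomal RNA precursors, in the spliceosome, on messenger RNA in the cytosol, or inside plastids and mitochondria. The genes described here are 52 listed Arabidopsis thaliana loci of this family, without the eIF4A genes of translation initiation. They were listed by locus and not by a measured value, though with earlier results of these data known. The probe table gives 31 of the 52 a probe set of their own (of 13286 genes with one on the array), 3 share a probe set with another gene, and 18 are not named there and are not analysed here. By known role or closest yeast or human relative, the 31 fell into 12 nucleolar, 5 cytosolic, 6 spliceosomal, 3 organellar and 4 Dbp2-like genes, with RH31 left without a class.

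The study compared apum23 mutants, in the Col-3 background, with wild-type Col-3. APUM23 is a nucleolar Pumilio-family protein that acts in the maturation of ribosomal RNA, the process that also needs the nucleolar helicases. Aerial parts of soil-grown plants were taken at 21 days, after growth at 22 °C with 8 h of light and 16 h of dark, and RNA was hybridised to Affymetrix ATH1 arrays, 3 per genotype. The series text gives the allele as apum23-1, while the sample descriptions number the mutants apum23-1 to apum23-3, and the sources used here do not say whether these are alleles or replicates. No probe set is named for APUM23 itself, so the genotype labels have no check from its level.

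Values are log2 probe set intensities as deposited. Of all 22746 probe sets tested with limma, 5.31% were called higher in apum23 at an adjusted p under 0.05 and 1.38% lower. The arrays were not on 1 scale. Their medians ran from 5.34 on wild-type replicate 1 to 6.10 on apum23 replicate 3, and 29 of the 31 helicase genes had their highest value on the latter array. Spiked-in hybridisation controls set wild-type replicate 1 apart too, at a mean of 5.36 against 9.42 to 9.74 on the other 5 arrays. Calls are therefore also given after quantile normalization, which puts all arrays on 1 distribution (9.69% of probe sets higher, 10.0% lower), and without wild-type replicate 1 (3.42% higher). Leaf genes were bright. RCA, the activase of carbon fixation, was at 13.75 ± 0.11 in wild type and 13.75 ± 0.16 in apum23 (SD, n = 3). PRK, the other photosynthesis gene measured, was at 12.71 ± 0.16 and 12.30 ± 0.28. The root hair gene EXPA7 lay at 3.67 ± 0.09 and 3.68 ± 0.25, within the 3.41 to 3.84 spanned by the arrays' lower quartiles. EXPA18, the other root hair gene measured, lay above that span, at 3.97 ± 0.15 and 4.23 ± 0.12.

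In apum23, 12 of the 31 helicase genes rose and 0 fell, while 19 stayed below the threshold. Of the 12, 11 belonged to the 12 nucleolar genes, and the other was RH34 (AT1G51380), a relative of the exon junction helicase eIF4A-III. After quantile normalization 13 rose and 0 fell, the same 12 together with the cytosolic RH52 (AT3G58570). Without wild-type replicate 1 the count was 10, with 9 of them nucleolar. The median log2 fold change was 0.37 over the 31 genes and 0.08 over all probe sets. In whole aerial parts, a change in the mix of cells and a change in RNA per cell cannot be told apart. The difference between 3′ and 5′ actin control probe sets, a sign of RNA integrity, moved with genotype as well, at 1.59 ± 0.07 in wild type and 1.42 ± 0.08 in apum23 (SD, n = 3; two-sided exact permutation p = 0.1, the lowest value available with 3 arrays a group). The ubiquitin controls also separated, at 0.19 ± 0.07 and 0.11 ± 0.02 (exact permutation p = 0.1), while those of GAPDH overlapped, at -0.10 ± 0.15 and -0.16 ± 0.11 (exact permutation p = 0.5). The nearest wild-type and apum23 arrays were close, at 1.5106 and 1.5005 for actin and 0.1257 and 0.1243 for ubiquitin. The part of these differences in the results was not tested.

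**Figure D1:**
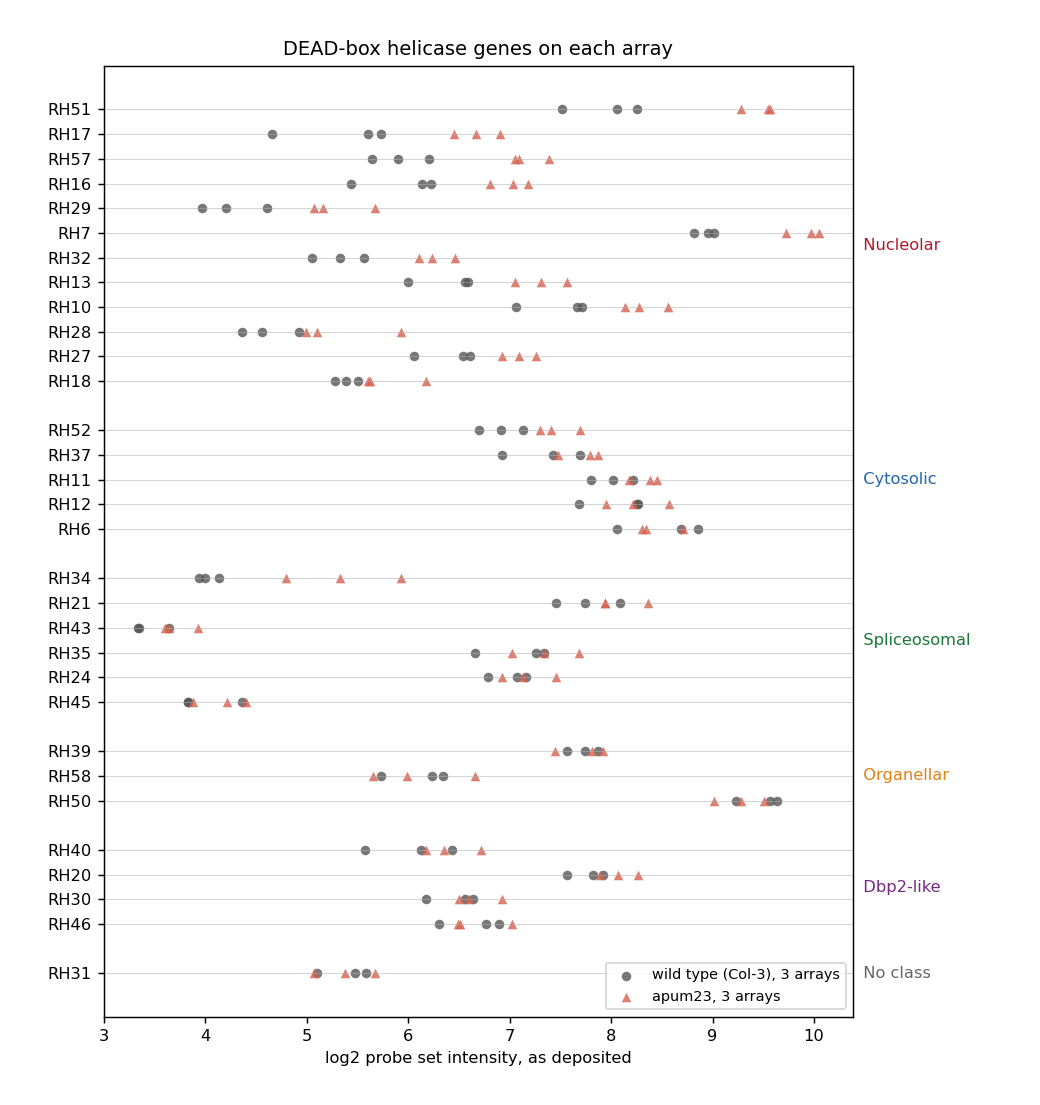
Log2 intensity (horizontal axis) of each helicase gene (rows, grouped by class) on the 3 wild-type arrays (grey circles) and the 3 apum23 arrays (red triangles). All 12 nucleolar genes have their triangles to the right of their circles, while in the other classes only RH34 and RH52 do.

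Nucleolar helicases unwind and remodel ribosomal RNA precursors as small nucleolar RNAs and assembly factors come and go. The 12 measured genes were RH7 (AT5G62190), RH10 (AT5G60990), RH13 (AT3G16840), RH16 (AT4G34910), RH17 (AT2G40700), RH18 (AT5G05450), RH27 (AT5G65900), RH28 (AT4G16630), RH29 (AT1G77030), RH32 (AT5G54910), RH51 (AT3G18600) and RH57 (AT3G09720). They had a median log2 fold change of 0.97, from 0.41 for RH18 to 1.52 for RH51, and all 12 had every apum23 array above every wild-type array, a separation found in 11.0% of all probe sets. After quantile normalization the median was 0.83 and 11 of the 12 stayed apart, against 15.9% of all probe sets. As deposited, each change had the same standard error, 0.22, because limma pooled the spread over all probe sets, and the smallest absolute change called was 0.66.

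Relatives of yeast helicases that act on the small ribosomal subunit were RH10, RH32 and RH57, and all 3 rose. RH57, related to Rok1 and known in Arabidopsis for its part in sugar and abscisic acid responses, read 5.64, 5.90 and 6.20 in wild type against 7.09, 7.05 and 7.38 in apum23. Its lowest mutant array lay 0.84 above its highest wild-type array, and it rose by 1.26 on the log2 scale, or 2.40-fold (limma adjusted p = 2.05e-06). RH32, related to Dbp4, read 5.05, 5.32 and 5.56 in wild type against 6.10, 6.23 and 6.46 in apum23. Its groups did not overlap, and the rise was 0.95 (limma adjusted p = 0.000936). For RH10, a relative of Rrp3, the wild-type arrays gave 7.06, 7.66 and 7.71 and the mutant arrays 8.13, 8.27 and 8.56. Wild-type replicate 1 was the low array, and RH10 rose by 0.84 (limma adjusted p = 0.00499), a call lost without apum23 replicate 3 (0.72, limma adjusted p = 0.0848).

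Relatives of yeast helicases of large-subunit assembly were RH13, RH16, RH17, RH18, RH28 and RH29, of which 5 of 6 rose. RH17, related to Dbp7, read 4.65, 5.60 and 5.73 in wild type against 6.45, 6.67 and 6.91 in apum23. Wild-type replicate 1 was about a log2 unit below the other wild-type arrays, and without it the rise of 1.34 (limma adjusted p = 2.82e-07) became 1.01, still called. RH16, related to Dbp9, read 5.44, 6.13 and 6.22 in wild type against 6.81, 7.03 and 7.18 in the mutant. The groups were 0.59 apart at their nearest arrays, and the rise was 1.07 (limma adjusted p = 0.000102). RH29, related to Dbp10, was among the dimmer nucleolar genes, at 3.96, 4.60 and 4.20 in wild type against 5.07, 5.16 and 5.67 in apum23. It lay above the lower quartiles of the arrays in both groups and rose by 1.04 (limma adjusted p = 0.00019). RH13, related to Mak5, read 5.999, 6.55 and 6.58 in wild type against 7.05, 7.31 and 7.57 in apum23. Again no mutant array reached down to the wild type, and RH13 rose by 0.93 (limma adjusted p = 0.00136).

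The remaining large-subunit relatives had smaller differences. RH28, related to Drs1, read 4.36, 4.92 and 4.56 in wild type against 5.09, 4.99 and 5.93 in apum23. Its groups were only 0.07 apart, with apum23 replicate 3 well above the other mutant arrays, and the rise of 0.73 (limma adjusted p = 0.0241) lost its call when wild-type replicate 1 (0.60) or apum23 replicates 1 (0.85) or 3 (0.43) were left out. It was also lost with median centring (0.56) and with an intensity trend in limma's variance (adjusted p = 0.0855). Quantile normalization without wild-type replicate 1 lost it as well (0.55, limma adjusted p = 0.072). RH18, related to Spb4, was the nucleolar gene that did not pass. It read 5.28, 5.50 and 5.39 in wild type against 5.62, 5.60 and 6.18 in apum23, a log2 fold change of 0.41 with a 95% interval from -0.03 to 0.85 (limma adjusted p = 0.392). After quantile normalization its groups overlapped and the change was 0.23 ± 0.13 (SE). A second Spb4 relative, RH49 (AT1G71370), shares its probe set with another gene and is not analysed here.

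RH7, also called PRH75 and needed for cold tolerance as well as for ribosomal RNA processing, was the brightest nucleolar gene. Its arrays read 8.81, 8.95 and 9.02 in wild type against 9.72, 9.97 and 10.05 in apum23. The wild-type spread was the narrowest of the 12 (SD 0.10), and RH7 rose by 0.98, or 1.98-fold (limma adjusted p = 0.000551). The rise was 0.95 after quantile normalization and 0.81 with each array centred on its median.

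RH27 and RH51 are both related to Has1, which in yeast serves both ribosomal subunits. RH51 had the largest change of all 31 helicase genes, from 7.51, 8.06 and 8.25 in wild type to 9.28, 9.55 and 9.56 in apum23. More than a log2 unit separated the nearest arrays of the groups (1.02), and RH51 rose by 1.52, or 2.87-fold, rank 88 of 22746 probe sets (limma adjusted p = 2.83e-09). RH27, which takes part in zygote division and meristem maintenance, read 6.06, 6.53 and 6.61 in wild type against 7.09, 6.92 and 7.26 in apum23. Its groups stayed apart, but the rise of 0.69 was close to the smallest that could be called (limma adjusted p = 0.0367). The call was lost when wild-type replicates 1 (0.52) or 2 (0.76) or apum23 replicates 1 (0.69), 2 (0.77) or 3 (0.60) were left out, and also with an intensity trend in limma's variance (adjusted p = 0.132) or without the dimmest 40% of probe sets (adjusted p = 0.0531). After quantile normalization, where each gene's own spread counts, RH27 rose by 0.56 ± 0.10 (SE; limma adjusted p = 0.00273). Taken within each array, RH27 changed by 0.83 less than RH51, with no overlap between genotypes. The exact permutation p was 0.1, two-sided, the smallest possible, and 0.24 after Benjamini-Hochberg adjustment over the 12 pairs of relatives compared. Such a difference removes a shift of the array that is equal for both genes, but not one that varies with intensity.

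**Figure D2:**
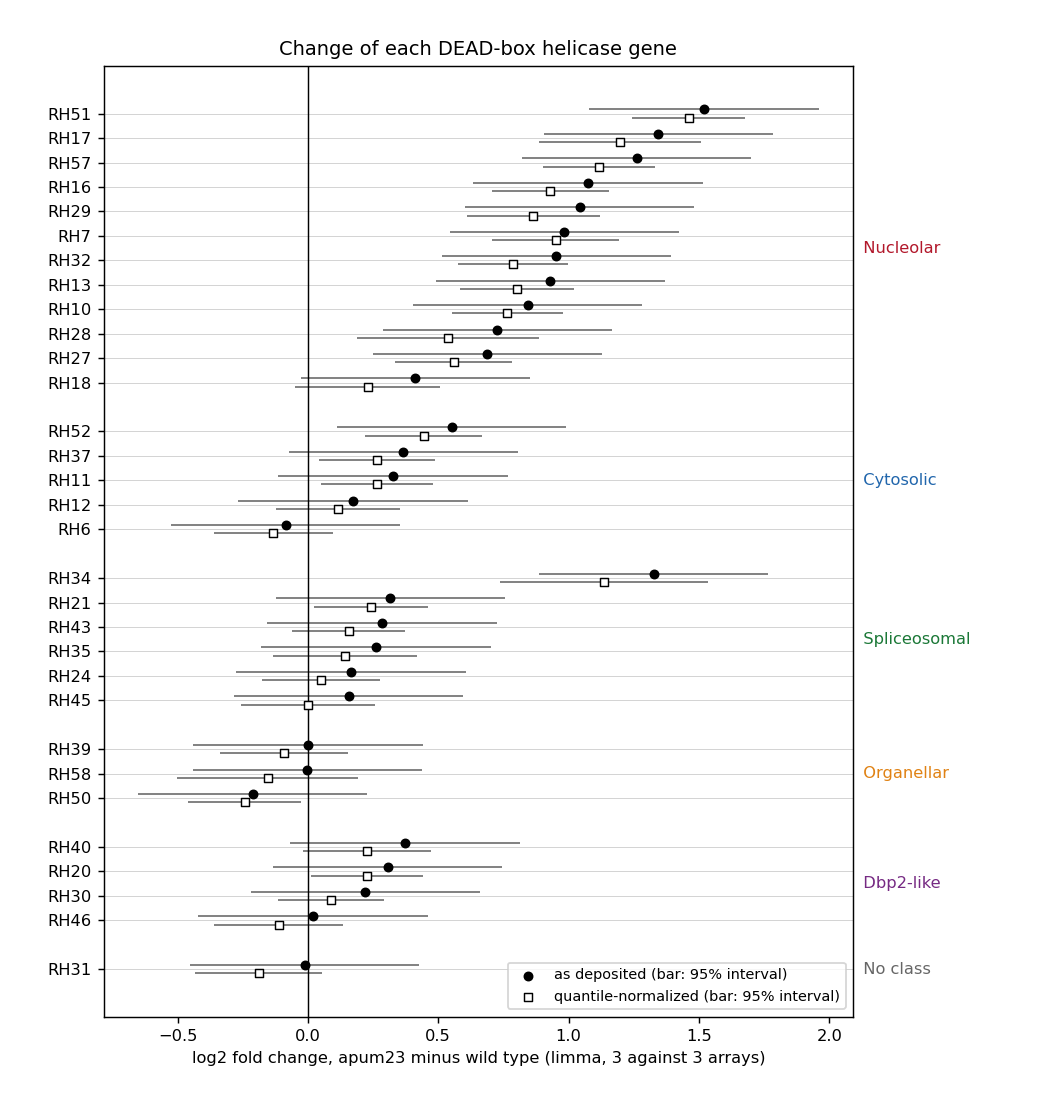
Log2 fold change of each helicase gene (apum23 minus wild type, horizontal axis) with its 95% interval from limma, as deposited (filled circles) and after quantile normalization (open squares). As deposited the changes run from -0.21 for RH50 to 1.52 for RH51, and 11 nucleolar genes and RH34 are at 0.69 or above; after quantile normalization RH50 is at -0.24, RH28 at 0.54 and RH27 at 0.56.

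Among the spliceosomal helicases 1 of 6 rose, and the 6 had a median log2 fold change of 0.27. The exception was RH34, which read 4.0001, 4.13 and 3.93 in wild type against 5.32, 4.80 and 5.93 in apum23. The wild-type values were tight and just above the arrays' lower quartiles, where the size of a change is less certain, and the mutant arrays were spread but all higher. RH34 rose by 1.33, or 2.51-fold (limma adjusted p = 4.5e-07), by 1.14 ± 0.18 (SE) after quantile normalization, and by 1.04 to 1.60 with each array left out. eIF4A-III itself, the RNA clamp that marks exon junctions, is not named in the probe table.

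No other spliceosomal gene passed on either scale. RH21 (AT2G33730), related to Prp28, which exchanges small nuclear ribonucleoproteins at the splice site, read 7.46, 7.74 and 8.09 in wild type against 7.93, 7.93 and 8.36 in apum23. The groups overlapped as deposited, and the log2 fold change was 0.32 (limma adjusted p = 0.622). After quantile normalization RH21 had every mutant array above the wild type, as did 15.9% of all probe sets, without passing (0.24, limma adjusted p = 0.119). RH24 (AT2G47330), related to human DDX42, was at 0.17, and RH45 (AT3G09620), related to the branch-site helicase Prp5, at 0.16. RH45 was dim, with a wild-type mean of 4.01. The 2 relatives of human DDX41 had changes of 0.26 for RH35 (AT5G51280) and 0.28 for RH43 (AT4G33370), and the within-array difference between them was -0.02 (exact permutation p = 1, two-sided). RH43 had a wild-type mean of 3.44, inside the range of the lower quartiles, so a change in it could have gone unseen.

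The 5 cytosolic helicases had a median log2 fold change of 0.33, and 0 passed the test as deposited. RH11 (AT3G58510), RH37 (AT2G42520) and RH52 are related to Ded1, which helps ribosomes scan to the start codon. RH52 read 6.70, 6.91 and 7.13 in wild type against 7.40, 7.30 and 7.69 in apum23. It was the cytosolic gene whose groups did not overlap, with a change of 0.55 (limma adjusted p = 0.142). After quantile normalization RH52 rose by 0.44 ± 0.10 (SE; limma adjusted p = 0.0106). RH37 was at 0.37 and RH11 at 0.33, and after quantile normalization both had every mutant array above the wild type without passing (0.26 and 0.27, limma adjusted p = 0.0947 and 0.0835). The within-array change of RH11 was 0.23 below that of RH52 without overlap, again at the smallest exact permutation p of 0.1.

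RH6 (AT2G45810) and RH12 (AT3G61240) are related to Dhh1, which represses translation and promotes decapping in cytosolic granules. RH6 read 8.06, 8.68 and 8.86 in wild type against 8.30, 8.34 and 8.70 in apum23, and RH12 read 7.68, 8.26 and 8.27 against 7.95, 8.21 and 8.57. The mutant arrays of RH6 lay inside the wild-type range, and in RH12 they overlapped it, with apum23 replicate 3 above every wild-type array. The log2 fold changes were -0.09 for RH6 (95% interval -0.53 to 0.35) and 0.17 for RH12 (-0.27 to 0.61). Their relative RH8 (AT4G00660) is not named in the probe table.

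Dbp2-like helicases, related in yeast to an enzyme that helps package nascent messenger RNA, had 0 calls among 4 measured genes. The log2 fold changes were 0.37 for RH40 (AT3G06480), 0.31 for RH20 (AT1G55150), 0.22 for RH30 (AT5G63120) and 0.02 for RH46 (AT5G14610), and all 4 groups overlapped as deposited. After quantile normalization RH46 was at -0.11 and the other 3 between 0.09 and 0.23, still without a call. On that scale RH20 and RH30 had every mutant array above the wild type, as did 15.9% of all probe sets. RH46 changed less than RH40 by 0.35 and less than RH30 by 0.20 within arrays, both without overlap (exact permutation p = 0.1 for each, two-sided). Over all 12 pairs of relatives 5 were without overlap, and none could pass at this number of arrays. The share without overlap among pairs of other genes was not computed, and some of the pairs share a gene. No conclusion about relatives is therefore drawn from this count.

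The 3 measured organellar helicases are assigned to plastids, and 0 passed the test. RH50 (AT3G06980), which acts on chloroplast ribosomal RNA, read 9.24, 9.57 and 9.63 in wild type against 9.01, 9.28 and 9.50 in apum23. Its groups overlapped as deposited and lay apart, lower in the mutant, after quantile normalization (as did 18.4% of all probe sets), where the change was -0.24 ± 0.10 (SE; limma adjusted p = 0.118). RH39 (AT4G09730), needed for maturation of the chloroplast large-subunit ribosomal RNA, read 7.56, 7.75 and 7.87 in wild type against 7.44, 7.81 and 7.92. RH58 (AT5G19210) read 5.73, 6.34 and 6.24 against 5.99, 5.65 and 6.66. In both, the wild type lay inside the spread of the mutant arrays, with changes of 0.0005 for RH39 and -0.0024 for RH58. The intervals, from -0.44 to 0.44 for each, do not exclude a moderate change. The mitochondrial helicases PMH1, PMH2 and ISE1 are not named in the probe table, so this class covers no mitochondrial gene. RH31 (AT5G63630), which has no sure class, was at -0.01.

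**Figure D3:**
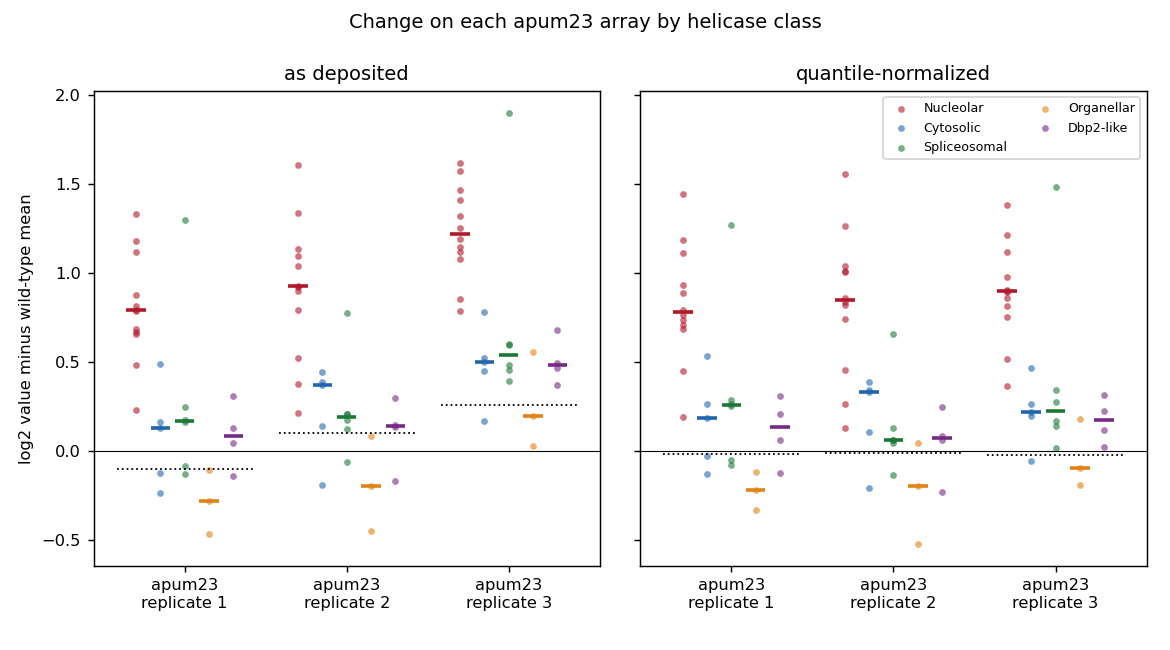
Change of each gene on each apum23 array from its wild-type mean (vertical axis, log2), by class, as deposited (left) and after quantile normalization (right); short bars are class medians and dotted lines the median of all probe sets. The nucleolar median is 0.79, 0.93 and 1.22 on apum23 replicates 1 to 3 as deposited and 0.78, 0.85 and 0.90 after quantile normalization.

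The difference between classes was present on every mutant array. As deposited, the nucleolar median was 0.79, 0.93 and 1.22 on apum23 replicates 1, 2 and 3, while all probe sets had medians of -0.10, 0.10 and 0.26 on the same arrays. The organellar medians were -0.28, -0.20 and 0.20 and the cytosolic medians 0.13, 0.37 and 0.50. Quantile normalization brought the nucleolar medians to 0.78, 0.85 and 0.90, with cytosolic medians of 0.19, 0.33 and 0.22 and organellar medians of -0.22, -0.20 and -0.10. As deposited, 12 of 12 nucleolar genes were highest on apum23 replicate 3 and lowest on wild-type replicate 1, and after quantile normalization 4 of 12 were highest on the one and 4 of 12 lowest on the other. The difference between classes itself was not tested, since the genes were grouped by role with earlier results of these data known.

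Other genes of the same processes were set beside the helicases from 10 lists, which were also chosen with earlier results of these data known. Of small-subunit processome and ribosomal RNA processing proteins, 9 were measured and 9 rose, with a median log2 fold change of 1.21. Among them AT3G12860, of the NOP56 family, rose from 4.77 ± 0.21 to 6.80 ± 0.20, and AT4G04940, a WD40-repeat gene, from 6.02 ± 0.49 to 7.32 ± 0.30 (SD, n = 3). The nucleolar helicases were at 0.97. Of 8 measured DEAH-box and related helicases 2 rose: NIH, a nuclear helicase, by 0.82 and AT3G62310 by 0.75 (limma adjusted p = 0.00653 and 0.0178), with a list median of 0.33. Of 3 Ski2-like helicases 0 passed, with AT5G61140 the furthest at 0.63 (limma adjusted p = 0.0648). After quantile normalization AT5G61140 rose by 0.52 and AT2G42270, of the BRR2 family of spliceosomal helicases and named after its values were seen, was called lower at -0.46 (limma adjusted p = 0.00329 and 0.0123).

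The eIF4A genes, left out of the helicase list, had 1 call among 2 measured. AT1G72730 rose by 0.95 (limma adjusted p = 0.00101), and EIF4A-2 was at 0.47 as deposited and was called after quantile normalization (0.44, limma adjusted p = 0.00733). Partners of the cytosolic and spliceosomal helicases had no call as deposited: 0 of 3 decapping factors (median 0.32), 0 of 6 exon junction and export factors (0.28) and 0 of 4 core spliceosome proteins (0.35). The furthest of each were AT1G79090, of the PAT1 family, at 0.40, the exon junction protein Y14 at 0.44 and ATU2AF65A, of splice site recognition, at 0.47. After quantile normalization all 3 of these were called higher (limma adjusted p = 0.0344, 0.0323 and 0.0227), in lists with 1 of 3, 1 of 6 and 2 of 4 calls. On that scale 9.69% of all probe sets were called higher, and these 3 genes were picked as the furthest of their lists. As deposited, the cytosolic and spliceosomal helicase medians were 0.33 and 0.27, and that of all probe sets 0.08. Markers were without a call as well: 0 of 2 photosynthesis genes (PRK at -0.41), 0 of 2 root hair genes (EXPA18 at 0.26) and 0 of 4 genes of the stomatal lineage and meristem (MUTE at 0.20). After quantile normalization PRK was called lower (-0.44, limma adjusted p = 0.0172).

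**Figure D4:**
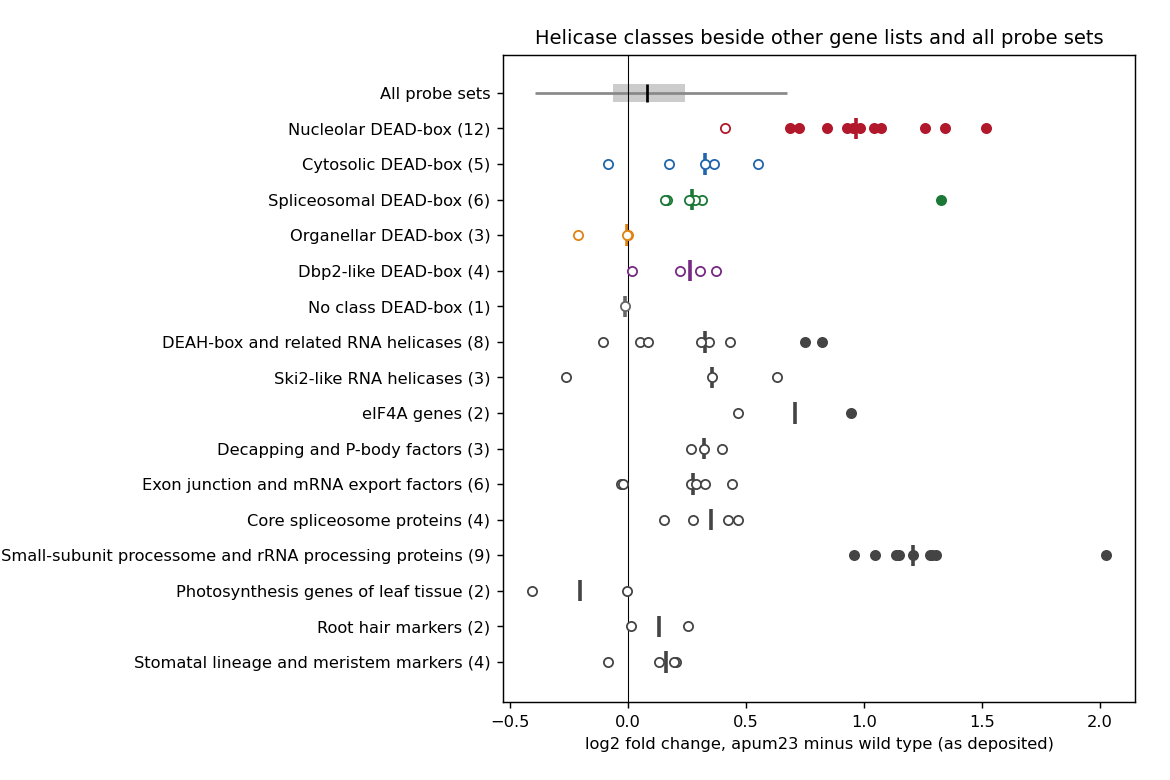
Log2 fold change as deposited (horizontal axis) of each gene by helicase class and gene list, with the number measured in brackets; filled points passed the test, vertical bars are medians. The top row gives all probe sets (bar from the 25th to the 75th percentile, line from the 5th to the 95th, -0.39 to 0.67). The nucleolar helicases and the processome list have medians of 0.97 and 1.21, and every other helicase class is at 0.33 or below.

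**Figure D5:**
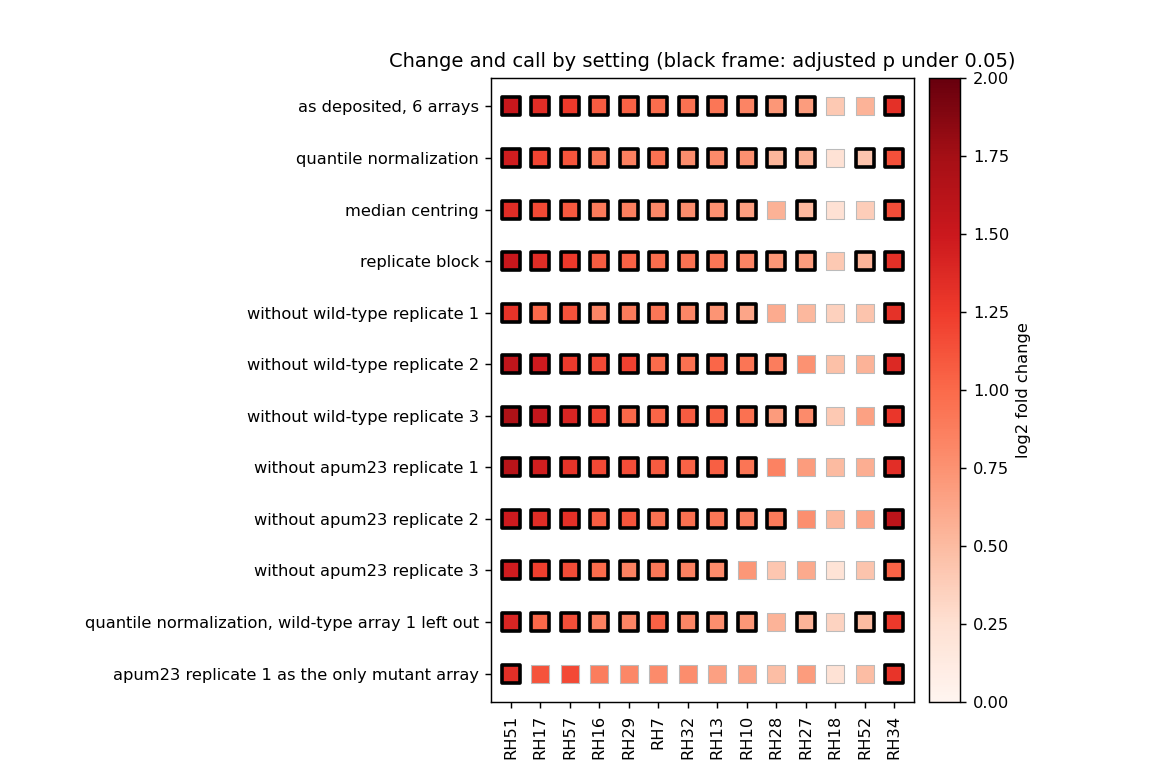
Log2 fold change (colour) and call (black frame, adjusted p under 0.05) of the nucleolar genes, RH52 and RH34 (columns) under different settings (rows). In every row RH51 and RH34 are called and RH18 is not. RH10, RH27 and RH28 lose their calls in some of these rows. In the last row apum23 replicate 1 is the only mutant array, and further nucleolar genes lose their frames.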

How the data were processed

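The authors deposited log2 probe set intensities for 6 ATH1 arrays. The submitters' processing notes name RMA and limma, without versions or roles. The deposited values have no common distribution over the arrays and were used as they stand, with quantile normalization and median centring as alternatives. Other alternatives were the replicate block, each array left out, an intensity trend in the prior variance, leaving out the dimmest 40% of probe sets, and stricter thresholds. Of 22810 probe sets, 64 controls were left out. Of the rest, the platform table gives 1 gene to 13513, several to 503 and no entry to 8730. Entrez identifiers were matched to RefSeq loci (TAIR10.1) for 13436 of the 13513. Each locus is read from its brightest single-gene probe set, and every measured helicase had exactly 1. RH names are not in all tables and follow the usual numbering of the family.

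All probe sets were fitted with limma 3.58.1 in R 4.3.3 (lmFit, eBayes, two-sided, no block), with Benjamini-Hochberg adjustment over 22746 and calls made below an adjusted p of 0.05. The script was tested on simulated data. Prior degrees of freedom were infinite as deposited, so a call amounts to a fold change threshold, and 7.27 after quantile normalization. Pairs of relatives were compared by exact permutation of the arrays. Every measured helicase could be named, with all called genes, the least changed and close relatives described in each class. The members, classes and lists were chosen with earlier results of these data known. The series text calls the samples independent, and nothing here says how plants were pooled, so p-values refer to the spread of these arrays, whose number limits the precision.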

Additional observations from a re-analysis of the deposited data

How the results depend on the processing

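No called helicase gene changed direction under any alternative run, but for all 12 the groups do not overlap, so leaving out arrays could not reverse them. Against 1522 probe sets called, the count was 4481 after quantile normalization, 2997 with median centring, 3717 with quantile normalization without wild-type replicate 1, 2604 with the replicate block, 3992 with the replicate block and quantile normalization, 253 with apum23 replicate 1 alone against wild type, 916 at an adjusted p under 0.01, 452 when a change of at least 1 on the log2 scale was also required, and 852 to 1842 with each array left out. The share of calls that were higher was 79.4% as deposited, 49.2% after quantile normalization and 39.9% with median centring, which moved the median change of all probe sets from 0.08 to -0.09. Changes of the nucleolar class above that median were 0.89 as deposited and 0.85 after quantile normalization. Median centring shifts every gene on an array equally, so it had to return the deposited 0.89. It is no separate check of this value. Helicase calls numbered 12 as deposited, 9 to 12 with each array left out, 2 with apum23 replicate 1 alone (RH51 and RH34; 1 nucleolar) and 6 (5 nucleolar) with that requirement. In the fit with apum23 replicate 1 alone, only the wild-type arrays give a spread. That fit takes the single mutant array to be as variable as those. Nucleolar calls were 8 to 11 with each array left out. RH28 was not called with median centring (0.56) or with quantile normalization without wild-type replicate 1 (0.55). An intensity trend in the prior variance left 1049 of 22746 probe sets called, 862 of them higher. It left 10 helicase calls, 9 nucleolar, without RH27 and RH28 (limma adjusted p = 0.132 and 0.0855). With the dimmest 40% of probe sets left out, 1152 of 13648 were called, and 9 of the 11 nucleolar genes still tested. There RH27 missed the threshold (limma adjusted p = 0.0531), and the nucleolar RH29 was not tested. Cytosolic calls went from 0 to 1 (RH52) after quantile normalization, with or without wild-type replicate 1, and under the replicate block on both scales. Spliceosomal calls went to 0 with the dimmest 40% of probe sets left out, because RH34 is then not tested. Calls among the other lists went from 12 to 20 after quantile normalization and to 2 with apum23 replicate 1 alone.

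Signs turned only for genes without a call. After quantile normalization RH39 was at -0.0922 and RH46 at -0.11, with the replicate block too. With median centring RH24 was at -0.0051, RH45 at -0.0135, RH39 at -0.17 and RH46 at -0.15. With quantile normalization without wild-type replicate 1, RH45 was at -0.0069, RH39 at -0.0114 and RH46 at -0.12. With apum23 replicate 1 alone, RH12 was at -0.12, RH24 at -0.0832, RH45 at -0.13, RH39 at -0.28 and RH46 at -0.14. With each array left out, the range was -0.32 to 0.076 for RH6, -0.0198 to 0.32 for RH12, -0.10 to 0.14 for RH39, -0.28 to 0.22 for RH58, -0.16 to 0.14 for RH46 and -0.16 to 0.14 for RH31. The cause was not tested.

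Same-numbered arrays deviated together at correlations of -0.29, 0.11 and 0.16, and 2 of 6 arrays correlated best with their own number, so the numbers were not taken as pairs. With the replicate block the helicase calls were 13, the 12 and RH52 (limma adjusted p = 0.0252), and with the replicate block and quantile normalization 12, with RH28 lost (limma adjusted p = 0.0507). The mean over several probe sets of a locus was not run, since no helicase had more than 1.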
